A study of Mus musculus with 8 samples.

Results

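The collagen gene family was taken as every protein-coding mouse gene named Col, a number, a and a number in the GRCm38 annotation, which gave 44 of the 52636 genes in the count files. Reads were counted for 42 of the 44 in at least 1 liver, and 30 were abundant enough to be tested among 15248 genes. The members were chosen by name and not by their values. The livers came from 8 male wild-type C57BL/6J mice that were injected intraperitoneally at 7 weeks of age with an AAV8 vector and fed a diet high in fat, fructose and cholesterol for 24 weeks from 8 weeks of age, to produce metabolic dysfunction-associated steatohepatitis (MASH). The vector carried GFP in the 4 control mice (AAV8-GFP; mice 303, 311, 314 and 315) and human AGXT in the other 4 (AAV8-AGXT; mice 308, 309, 316 and 319), in both cases under the TBG promoter, which is active in hepatocytes. AGXT is the liver enzyme that converts glyoxylate to glycine. One poly(A) RNA library was made per liver, and the mice sequenced were a random selection from larger groups, all of them on the diet and all carrying a vector.

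Collagens are secreted proteins whose alpha chains wind around each other into a helix. Fibrillar collagens (types I, III, V and relatives) form the fibres of scar tissue, basement membrane collagen (type IV) forms sheets under epithelia and around vessels, and type VI forms beaded filaments between them. FACIT collagens lie along fibrils, multiplexins (types XV and XVIII) sit in basement membrane zones, and other types span the cell membrane or build short networks. In liver, stellate cells and portal fibroblasts are the known makers of fibrillar collagen in scarring, whereas hepatocytes make little of it and are a known source of type XVIII. Since whole liver was sequenced, fewer collagen-producing cells and less collagen RNA per cell cannot be told apart.

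Between 17095433 and 28780140 reads were counted on genes per liver, which was 56.3% to 69.1% of all those in each file. Counts were scaled for library size with TMM factors and written as CPM, a gene's reads scaled to the same fixed total in each liver, and CPM per kilobase of exon was used wherever levels of different genes were compared. Mouse Agxt lay between 148 and 179.6 CPM in AAV8-GFP livers and between 201 and 405 CPM in AAV8-AGXT livers (log2 fold change 0.90 ± 0.22, adjusted p = 0.0489 in edgeR); whether reads of the human transgene entered this count was not tested. The hepatocyte genes Alb, Ttr and Apoa1 were each at 3786 CPM or above in all 8 livers. The summed hepatocyte markers were higher in every AAV8-AGXT liver (28950 to 42212 CPM per kb) than in every AAV8-GFP liver (24182 to 28020). Alb and Apoa1, each with overlapping groups, averaged 12808.6 and 9243.5 of the mean sum of 26491.8 CPM per kb in AAV8-GFP. Of the 6 marker genes, 1, Cps1 of the urea cycle, passed edgeR as higher (2.45% of all genes). At an unadjusted p under 0.05, 4 were higher (13.5% of all genes), and 2 passed DESeq2 as higher (6.58%). Cholangiocyte markers summed to 131 to 397 CPM per kb in AAV8-GFP and 41.4 to 159 in AAV8-AGXT livers. Mouse 315 was lowest in the first group and mouse 308 in the second. Most of this sum was 1 gene, Spp1, which averaged 293.7 of 313.9 CPM per kb in AAV8-GFP and 95.3 of 103.9 in AAV8-AGXT.

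Sequences before the starts of 5 members are shown as examples. Col3a1 and Col6a3 are among those lower in AAV8-AGXT, and Col13a1 and Col18a1 among the few that were not. Col5a3 is the most abundant fibrillar gene per length. Col1a1, which had the most negative log2 fold change, had no promoter entry. Each is the 120 bases just before the first annotated start, 5′ to 3′ on the gene's strand, from the RefSeq table of GRCm38.p6, and capitals mark a match, on either strand, to the TATA box (searched as TATAAA), the CCAAT box (searched as those letters) or the GC box (searched as GGGCGG).
Col3a1 (chr1:45311418-45311537, plus strand): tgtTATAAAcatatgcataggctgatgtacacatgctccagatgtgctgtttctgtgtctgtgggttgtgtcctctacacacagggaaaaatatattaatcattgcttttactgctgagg
Col5a3 (chr9:20815068-20815187, minus strand): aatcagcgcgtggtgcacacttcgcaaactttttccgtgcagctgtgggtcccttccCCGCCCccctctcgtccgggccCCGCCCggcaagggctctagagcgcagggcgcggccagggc
Col6a3 (chr1:90843972-90844091, minus strand): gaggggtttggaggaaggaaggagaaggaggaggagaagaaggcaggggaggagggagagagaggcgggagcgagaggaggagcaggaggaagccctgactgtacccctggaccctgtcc
Col13a1 (chr10:61979109-61979228, minus strand): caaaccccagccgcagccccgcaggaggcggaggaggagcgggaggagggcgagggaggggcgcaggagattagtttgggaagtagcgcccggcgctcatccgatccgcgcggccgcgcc
Col18a1 (chr10:77166549-77166668, minus strand): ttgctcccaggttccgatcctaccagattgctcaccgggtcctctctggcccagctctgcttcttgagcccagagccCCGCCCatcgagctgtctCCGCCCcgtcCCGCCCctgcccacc

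The stretch of Col18a1 held 3 copies of the GC box and that of Col5a3 held 2, Col3a1 had a TATA box whose first base lay 117 bases before the start, and Col6a3 and Col13a1 showed none of the 3 motifs in this stretch. Of the 44 members, 35 had a promoter entry, and 24 of these had been tested. Within 250 bases before the start, the GC box was found in 15 of the 24, against 32.7% of 32851 promoter windows. The CCAAT box occurred in 8 of the 24 (33.8% of all windows) and the TATA box in 3 of the 24 (12.4%). These matches are a description of letters. Among the 15 members with a window and an unadjusted p under 0.05 in the lower direction, 9 had the GC box, 6 the CCAAT box and 1 the TATA box.

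The 6 type IV genes lie in 3 head-to-head pairs whose members are read away from each other, so the bases between or across their starts are common to both. Col4a4 and Col4a3 are separated by 71 bases and the first exons of Col4a1 and Col4a2 overlap by 22, whereas Col4a6 and Col4a5 start 1309 bases apart on chromosome X. Both shared stretches are given here, with the GC box in capitals.
Col4a4 and Col4a3 (chr1:82586850-82586920, minus strand, between the starts): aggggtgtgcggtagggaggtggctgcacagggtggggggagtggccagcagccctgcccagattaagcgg
Col4a1 and Col4a2 (chr8:11312805-11312826, plus strand, in both first exons): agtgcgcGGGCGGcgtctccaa

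The question behind the series was what raising AGXT in hepatocytes changes in the MASH liver, and for the collagens the comparison was AAV8-AGXT against AAV8-GFP. Most collagen genes were lower in mice overexpressing AGXT: 24 of the 30 tested had a negative log2 fold change and 6 a positive one, with a median of -0.58 against 0.02 over all tested genes. The spread between mice was wide, and in edgeR no collagen gene passed an adjusted p of 0.05 in either direction, while 1.9% of all tested genes passed lower and 2.45% higher. At an unadjusted p under 0.05, 17 collagen genes were lower (12.6% of all genes) and 1, Col13a1, was higher (13.5%). DESeq2, which was run as a second test, called 10 collagen genes lower and 0 higher of 32 with an adjusted p, against 6.37% and 6.58% of 16225 genes. Among the 30 tested members, the groups did not overlap for 6 that were lower in AAV8-AGXT (7.63% of all genes) and for 0 that were higher (8.93%). The smallest adjusted p in edgeR was 0.0677, for Col6a1. Relative to total counts with no composition factor, the median of all genes moved to -0.22 and that of the collagens to -0.81, so the distance between them stayed close to the one under TMM.

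**Figure D1:**
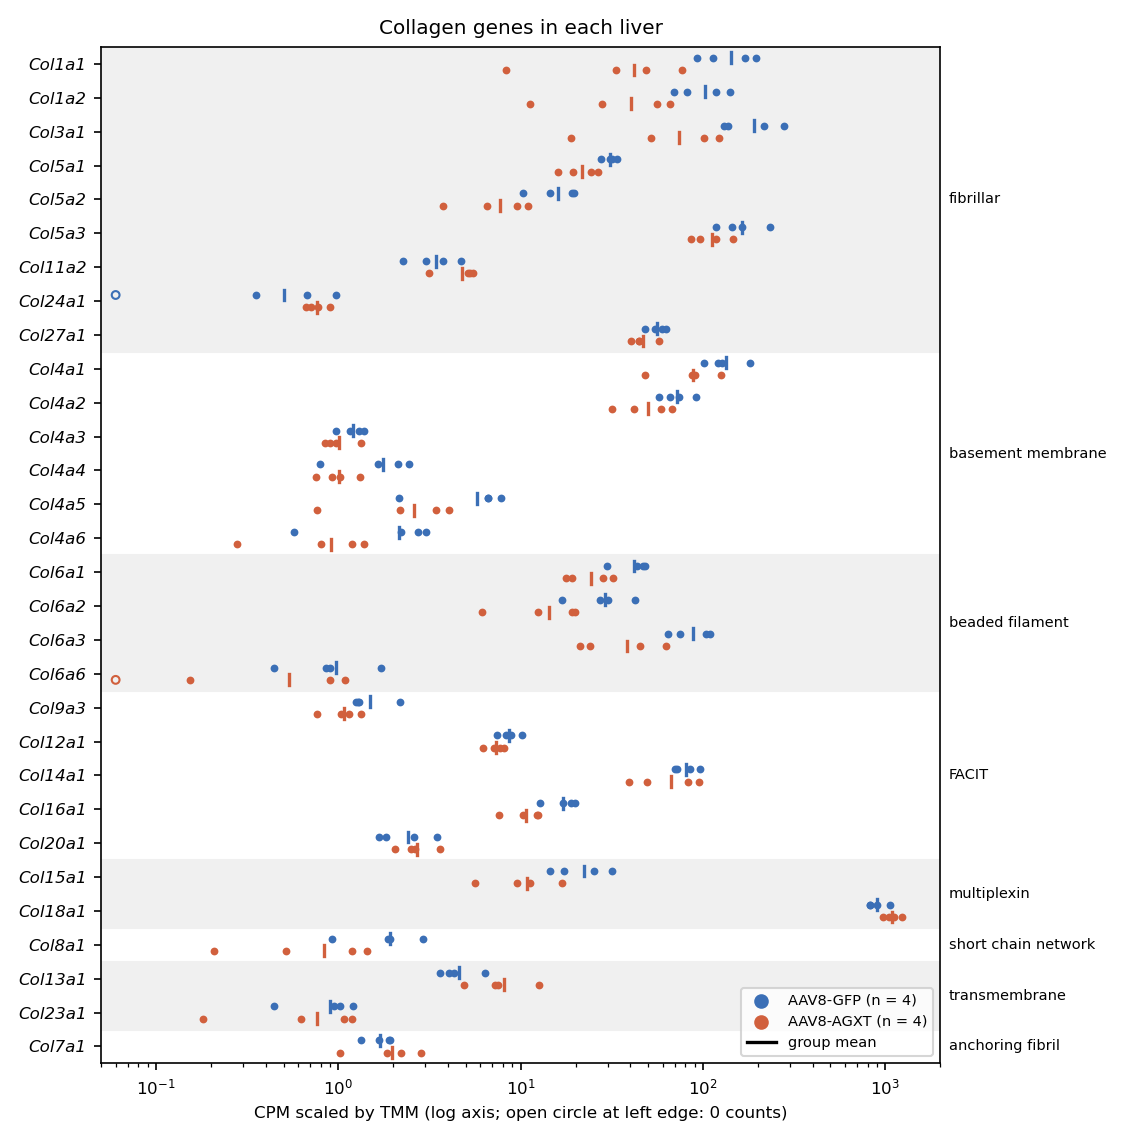
CPM (horizontal log axis) of the 30 tested collagen genes (rows, by class) in each liver, blue for AAV8-GFP and orange for AAV8-AGXT, with a tick at each group mean and open circles at the left edge for 0 counts. The orange points of Col1a1, Col1a2, Col3a1, Col5a1, Col6a3 and Col16a1 all lie below the blue ones, and Col18a1 stands far to the right of every other gene.

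Among the fibrillar genes, those of types I, III and V had negative log2 fold changes and Col11a2 and Col24a1 positive ones, and none passed edgeR. Of the 11 genes, 9 were tested, and 6 of these were lower at an unadjusted p under 0.05 (12.6% of all genes). Of the 6, 3 (Col1a1, Col5a1 and Col5a2) passed DESeq2 as lower (6.37% of all genes). None was higher at an unadjusted p under 0.05, and the median log2 fold change was -0.56. Summed over the class, the level per length was 83.7 ± 12.8 CPM per kb in AAV8-GFP (SD, n = 4) and 41.2 ± 7.72 in AAV8-AGXT (SD, n = 4), a ratio of 0.492, and every AAV8-AGXT liver (33.1 to 50.1) was under every AAV8-GFP liver (69.8 to 96.7).

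Col1a1 (ENSMUSG00000001506, chr11:94936224-94953042), the alpha-1 chain of type I collagen and the main protein of liver scars, had the most negative log2 fold change of the family in edgeR. It stood at 114, 170.2, 195 and 92.3 CPM in AAV8-GFP mice 303, 311, 314 and 315, and at 8.35, 76.7, 48.8 and 33.1 CPM in AAV8-AGXT mice 308, 309, 316 and 319, the order kept for all values that follow. The groups did not overlap, and mouse 308 was far below the rest of its group. The log2 fold change was -1.77 ± 0.52 (SE, n = 4 and 4), with an adjusted p of 0.0769 in edgeR and 0.0431 in DESeq2, and it was -1.45 without mouse 308. Col1a2, the second chain of the same protein, measured 81.3, 117, 140.3 and 69.6 CPM against 11.25, 66.2, 56.0 and 27.8 CPM. Its groups were separate too, at -1.34 ± 0.46 (adjusted p = 0.107 in edgeR and 0.0969 in DESeq2). Col3a1, the single chain of type III collagen, which mixes with type I in fibres, read 137, 216, 279 and 130.4 CPM against 18.8, 123, 102 and 51.6 CPM. All 4 AAV8-AGXT values were below the lowest control, the highest of them by a small margin, and the log2 fold change was -1.37 ± 0.49 (adjusted p = 0.118 and 0.11).

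The type V chains, which set the width of type I fibrils, differed in size of change and in spread. Col5a1 was at 31.8, 31.0, 33.5 and 27.6 CPM in AAV8-GFP and at 16.02, 24.3, 26.6 and 19.4 CPM in AAV8-AGXT. The controls were narrow and the AAV8-AGXT values wider. The groups were separate by a small margin, the highest AAV8-AGXT value (26.6 CPM) lying just under the lowest control (27.6 CPM). The log2 fold change of -0.52 ± 0.16 gave an adjusted p of 0.0801 in edgeR and 0.0324 in DESeq2. Col5a2, whose gene lies 24.6 kb from Col3a1 on chromosome 1 and tail to tail with it, measured 14.6, 19.1, 19.7 and 10.3 CPM against 3.73, 11, 9.55 and 6.56 CPM. Only mouse 309 exceeded the lowest control, mouse 315, and the log2 fold change was -1.04 ± 0.32 (adjusted p = 0.0816 in edgeR and 0.0181 in DESeq2). Col5a3 was the highest fibrillar gene per length over the 8 livers, at 24.1 ± 7.21 CPM per kb in AAV8-GFP and 16.4 ± 3.89 in AAV8-AGXT (SD, n = 4 each). Its CPM of 145, 163, 117 and 232 against 146, 86.3, 96.0 and 117 overlapped widely, and unlike the other 5 chains it was highest in mouse 315 and, among AAV8-AGXT mice, in mouse 308. The log2 fold change of Col5a3 was -0.56 ± 0.23 (adjusted p = 0.154 in edgeR and 0.085 in DESeq2).

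The remaining fibrillar genes had smaller fold changes or were rare. Col27a1, a fibrillar chain with a short helix, had a log2 fold change of -0.27 ± 0.13 (adjusted p = 0.222) on 48.0 to 63.0 CPM in controls. Col11a2, a chain of cartilage collagen, averaged 3.43 ± 1.03 CPM in AAV8-GFP and 4.75 ± 1.09 in AAV8-AGXT (SD, n = 4 each), and its log2 difference of 0.47 ± 0.27 had an adjusted p of 0.289. Col24a1 stayed under 1 CPM in all livers (0.55 ± 0.66, adjusted p = 0.629). Col2a1, the main chain of cartilage, had 2 reads in all 8 livers and Col11a1 had 0, which allows up to 0.175 CPM in the shallowest library.

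**Figure D2:**
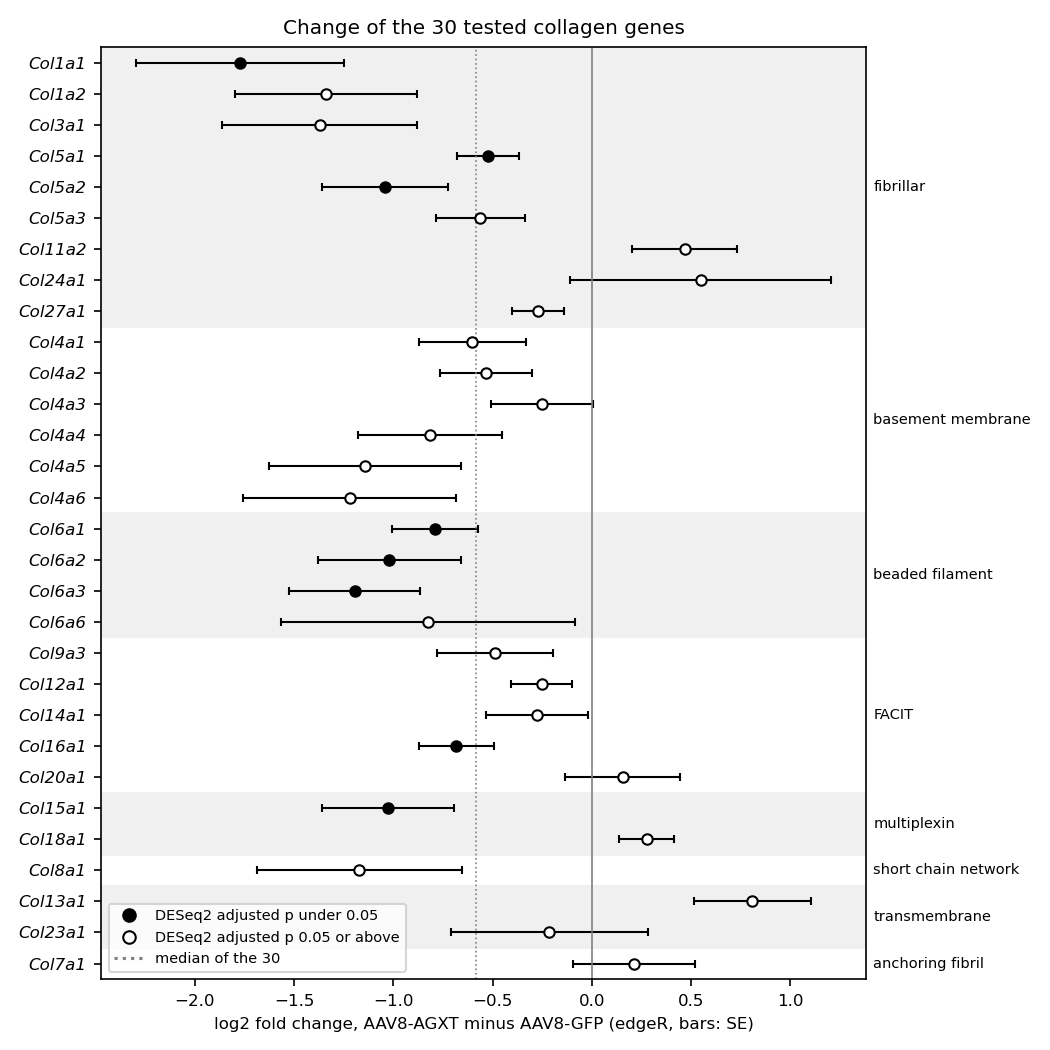
Log2 fold change of AAV8-AGXT minus AAV8-GFP (horizontal axis, edgeR, bars are SE, 4 mice per group) for the 30 tested collagen genes by class, filled where DESeq2 gave an adjusted p under 0.05. Of the 30, 24 lie left of 0, the dotted median is at -0.58, and the 8 filled points are all on the left.

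All 6 basement membrane genes had negative log2 fold changes, from -1.22 to -0.25 with a median of -0.71, but none passed edgeR or DESeq2 and none separated the groups. An unadjusted p under 0.05 was reached by 5 of the 6, all lower (12.6% of all genes), and the smallest adjusted p was 0.169. Col4a1 (chr8:11198423-11312826), a chain of the type IV network found around most vessels, stood at 121, 127.5, 182 and 101 CPM in AAV8-GFP and 48.3, 125, 90.1 and 87.1 CPM in AAV8-AGXT. Mouse 309 lay within the control range and mouse 308 was well under all others, and the log2 fold change was -0.60 ± 0.27 (adjusted p = 0.19 in edgeR and 0.139 in DESeq2). Its partner chain Col4a2 measured 65.9, 74.0, 91.8 and 57.3 CPM against 31.6, 67.8, 58.6 and 41.8 CPM, at -0.53 ± 0.23 (adjusted p = 0.179). Within each group both genes ordered the mice alike, with mouse 308 at the bottom.

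The minor type IV chains differed more in fold but were far rarer. Col4a5 and Col4a6, which share a head-to-head locus, were at -1.14 ± 0.48 and -1.22 ± 0.54, with adjusted p of 0.169 and 0.183. Control means were 5.79 CPM for Col4a5 and 2.14 CPM for Col4a6, and control mouse 315 (2.16 and 0.573 CPM) lay inside the AAV8-AGXT range for both. Col4a4 and Col4a3, across the 71 bases shown above, were at -0.81 ± 0.36 (adjusted p = 0.187) and -0.25 ± 0.26 (adjusted p = 0.57) on levels of 0.755 to 2.45 CPM, and 5.6% of the exon bases of Col4a3 are shared with another annotated gene.

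Type VI collagen carried the smallest adjusted p of any class in both tests, and its 4 tested chains had negative log2 fold changes, although none passed edgeR. Of 6 genes 4 were tested, and 3 of the 4 were lower at an unadjusted p under 0.05 (12.6% of all genes). DESeq2 called 4 of the 6 lower (6.37% of all genes), including Col6a5, which was too rare for the edgeR filter. The summed level was 20.6 ± 4.87 CPM per kb in AAV8-GFP and 10.5 ± 3.83 in AAV8-AGXT (SD, n = 4 each), a ratio of 0.512, without overlap, although mouse 315 at 14.3 and mouse 309 at 14.2 nearly met.

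Col6a1 read 43.4, 46.9, 48.1 and 29.7 CPM in AAV8-GFP against 17.7, 28.1, 32.15 and 19.2 CPM in AAV8-AGXT. Only mouse 316 exceeded the lowest control, and the log2 fold change was -0.79 ± 0.22 (adjusted p = 0.0677 in edgeR and 0.0127 in DESeq2). Col6a2, 85.2 kb away on the same strand of chromosome 10, measured 27.1, 30.1, 42.5 and 16.9 CPM against 6.14, 19.8, 19 and 12.4 CPM. Mice 309 and 316 were above control mouse 315, and the log2 fold change was -1.02 ± 0.36 (adjusted p = 0.114 and 0.0401). Col6a3 (chr1:90765923-90843971), the large chain whose cleaved end circulates as endotrophin, was at 74.4, 103, 109 and 64.4 CPM against 21.3, 62.7, 45.3 and 24.1 CPM. This was the type VI gene with separate groups, at -1.19 ± 0.33, and its DESeq2 adjusted p of 0.00678 was the smallest of the family (0.0689 in edgeR).

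The 3 other type VI genes lie in a row on chromosome 9. Col6a5 gave 0.742, 0.765, 1.245 and 0.353 CPM in AAV8-GFP and 0.138, 0.180, 0.462 and 0.0944 CPM in AAV8-AGXT, on 2 to 27 reads per liver, with a DESeq2 log2 fold change of -1.82 ± 0.65 (adjusted p = 0.0427). Col6a6 lay under 2 CPM in each liver with 0 reads in mouse 308, and its log2 fold change was -0.83 ± 0.74 (adjusted p = 0.507). Col6a4 had 2 reads in all.

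Among the FACIT collagens, 4 of 5 tested genes had negative log2 fold changes, with a median of -0.27. Of the 5, 1 was lower at an unadjusted p under 0.05 (12.6% of all genes). That gene was Col16a1, which is found along fibrils and near basement membranes. It stood at 18.8, 19.8, 17.1 and 12.75 CPM in AAV8-GFP and 7.59, 12.3, 12.4 and 10.2 CPM in AAV8-AGXT, separate by a small gap between mice 315 and 316 (-0.68 ± 0.19, adjusted p = 0.0697 in edgeR and 0.0164 in DESeq2). Col14a1, a fibril-bound collagen and the most abundant of the class, was at 71.6, 85.3, 95.8 and 69.9 CPM against 39.3, 95.4, 82.5 and 49.55 CPM. Mice 309 and 316 were level with the controls while 308 and 319 were lower, and the log2 fold change was -0.27 ± 0.26 (adjusted p = 0.533). Col12a1 (-0.25 ± 0.15, adjusted p = 0.321), Col9a3 (-0.49 ± 0.29, adjusted p = 0.316) and Col20a1 (0.16 ± 0.29, adjusted p = 0.771) did not pass either test, and Col20a1 turned to -0.10 with total counts. Col9a1 had no reads, and Col9a2, Col19a1 and Col22a1 had 21, 1 and 12 in all.

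The multiplexins had log2 fold changes of opposite sign, and Col18a1 was higher per length than any other single collagen gene. Col18a1 (ENSMUSG00000001435, chr10:77052178-77166548), whose cleaved end is the anti-angiogenic fragment endostatin, stood at 826, 826, 901 and 1059 CPM in AAV8-GFP and at 1117, 1053, 970.2 and 1231 CPM in AAV8-AGXT. Control mouse 315 overlapped the AAV8-AGXT range and the other 3 controls lay below it. The log2 fold change of 0.28 ± 0.14 did not pass (adjusted p = 0.241 in edgeR and 0.159 in DESeq2), and it was 0.04 with total counts. Col15a1, a relative found in basement membrane zones, measured 17.3, 25.3, 31.6 and 14.5 CPM against 5.59, 11.3, 9.50 and 16.9 CPM. Mouse 319 was inside the control range, and the log2 fold change was -1.03 ± 0.33 (adjusted p = 0.0923 in edgeR and 0.0244 in DESeq2).

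Col18a1 made up 45.5% ± 5.99 of the summed collagen level per length in AAV8-GFP and 64.1% ± 7.41 in AAV8-AGXT (SD, n = 4 each), from 40.8% to 53.6% and from 57.1% to 71.4%. The sum over all 44 genes was therefore 284 ± 24.8 CPM per kb in AAV8-GFP and 244 ± 17.6 in AAV8-AGXT, a ratio of 0.859 with overlapping groups. Without Col18a1 it was 155 ± 26.5 and 88.1 ± 21.9, a ratio of 0.568, and every AAV8-AGXT liver (63.6 to 113) was below every AAV8-GFP liver (130.4 to 186). Col1a1 accounted for 7.59% ± 2.08 of the sum in AAV8-GFP and 2.54% ± 1.65 in AAV8-AGXT.

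**Figure D3:**
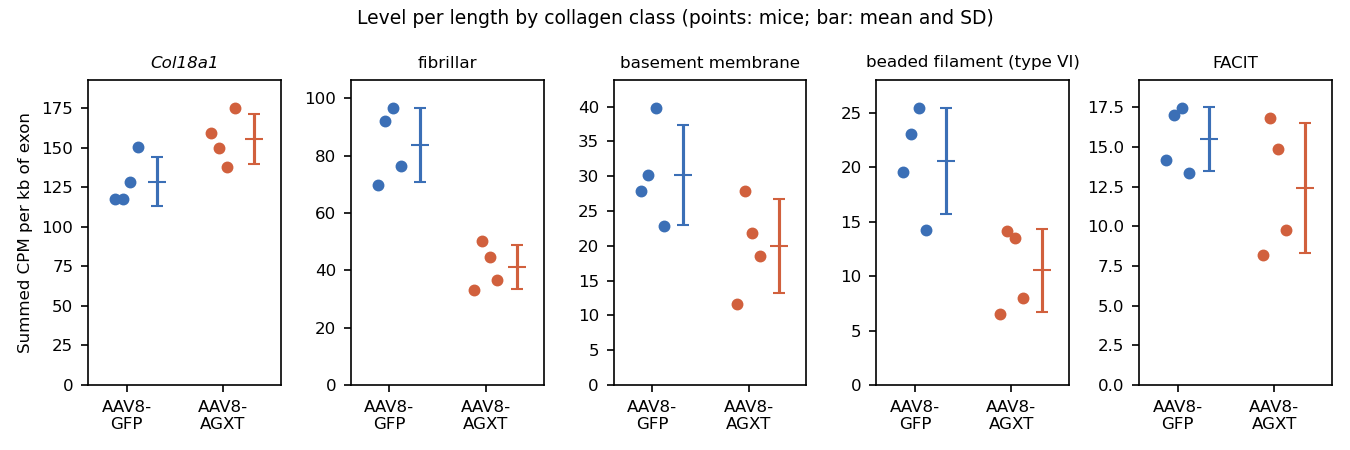
Level per length (CPM per kb of exon, vertical axes from 0, each panel on its own scale) of Col18a1 and of 4 collagen classes summed, with a point for each mouse and the mean and SD of 4 mice beside them. The fibrillar and type VI points of the AAV8-AGXT group are all under those of AAV8-GFP, whereas basement membrane, FACIT and Col18a1 points overlap.

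The rank of the genes per length also differed between the groups. In AAV8-GFP the order began with Col18a1 (129 CPM per kb), Col5a3 (24.1), Col1a1 (21.8), Col3a1 (19.4), Col4a1 (17.8) and Col14a1 (11.5). In AAV8-AGXT it began with Col18a1 (156), Col5a3 (16.4), Col4a1 (11.7), Col14a1 (9.51), Col4a2 (7.54), Col3a1 (7.51) and Col1a1 (6.36), so Col1a1 was number 3 in AAV8-GFP and number 7 in AAV8-AGXT. Of the neighbours in these orders, Col18a1 and Col5a3 had separate ranges in both groups and Col6a3 and Col27a1 had them in AAV8-GFP, and all other neighbours overlapped across mice.

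In the smaller classes, Col8a1, a short-chain collagen of vessel walls, was at 1.87, 1.93, 2.91 and 0.926 CPM in AAV8-GFP and 0.207, 1.44, 1.18 and 0.519 CPM in AAV8-AGXT. Control mouse 315 fell inside the other group's range, and the log2 fold change was -1.17 ± 0.52 (adjusted p = 0.182). Its relative Col8a2 was too rare for edgeR, with 2 to 25 reads per liver, but passed DESeq2 at -2.02 ± 0.73 (adjusted p = 0.045); it measured 0.4295, 0.765, 0.5997 and 0.2205 CPM against 0.138, 0.180, 0.103 and 0.0944 CPM, with no overlap. Col10a1, also of this class, had 9 reads in all.

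Col13a1, a collagen that spans the cell membrane at adhesion sites, had the most positive log2 fold change of the family in edgeR. Its CPM were 6.365, 4.04, 3.60 and 4.32 in AAV8-GFP and 12.6, 7.27, 7.498 and 4.91 in AAV8-AGXT. Only mouse 319 fell within the control range, and the log2 fold change of 0.81 ± 0.29 did not pass (adjusted p = 0.12 in edgeR and 0.0583 in DESeq2). Col23a1, also of the membrane, was at -0.21 ± 0.50 (adjusted p = 0.819), and its relatives Col17a1 and Col25a1 had 8 and 14 reads. Col7a1, the chain of the fibrils that anchor epithelia, read 1.91, 1.90, 1.66 and 1.32 CPM against 2.83, 1.02, 1.85 and 2.22 CPM. Both its lowest and its highest value were in the AAV8-AGXT group (0.21 ± 0.31, adjusted p = 0.699; -0.05 with total counts). Col26a1 and Col28a1, which fit no class, had 2 and 11 reads.

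Within each group the same mice tended to be lowest. Over the 17 genes that were lower at an unadjusted p under 0.05, mouse 315 was the lowest control for 16 and mouse 308 was the lowest AAV8-AGXT mouse for 15. The exceptions were Col5a3 for both and Col4a4 for mouse 308. Over all 15248 tested genes these mice were the lowest of their group for 25.7% and 28.9%. Mouse 314 was the highest control for 13 of the 17 and mouse 309 the highest AAV8-AGXT mouse for 10. The count of lower genes at an unadjusted p under 0.05, 17 with all mice, was 15 without mouse 308, 17 without mouse 315, 17 without mouse 309 and 15 without mouse 316. It dropped to 11 without mouse 303, 311 or 314 and to 10 without mouse 319. Calls over all genes at an adjusted p under 0.05, 664 with all mice, dropped as well. They were 193 without mouse 303, 2 without mouse 311, 15 without mouse 314 and 14 without mouse 319. Without mouse 308, 315, 309 or 316 they were 177, 629, 643 and 411. Mouse 308 also had the lowest share of reads on genes, 56.3%, and its part in these values beyond the fits without it was not tested.

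Ratios between chains within a liver do not depend on library scaling, and 5 of them were compared by an exact two-sided permutation test over the 70 arrangements of 8 mice, whose smallest possible p is 0.0286. The ratios were chosen with the results of single genes known. Col1a1 to Col1a2, whose products join in type I collagen in fixed proportion, was 2.65, 2.75, 2.64 and 2.51 per length in AAV8-GFP and 1.405, 2.19, 1.65 and 2.26 in AAV8-AGXT. The controls were nearly identical, all 4 AAV8-AGXT livers were lower, and the log2 difference was -0.52 (exact p = 0.0286, adjusted over 5 ratios 0.0476). The height of this ratio depends on the exon lengths used, while the difference between groups does not.

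Col1a1 also fell relative to the other genes it was set against. Col1a1 to Col3a1 was 1.24, 1.18, 1.05 and 1.06 in AAV8-GFP and 0.665, 0.935, 0.717 and 0.961 in AAV8-AGXT, a log2 difference of -0.48 (exact p = 0.0286, adjusted 0.0476). Col1a1 to Col4a1, fibril against basement membrane, was 1.07, 1.52, 1.22 and 1.04 against 0.197, 0.697, 0.616 and 0.4325 (log2 difference -1.45, exact p = 0.0286, adjusted 0.0476). In all 3 the groups did not overlap, and leaving out any 1 mouse kept the direction, although no p under 0.0571 is then possible. The 3 ratios share Col1a1, the gene with the most negative log2 fold change of the family, and are not separate results. Their adjusted p of 0.0476 depends on all 3 standing at the smallest possible exact p of 0.0286. By contrast, Col4a1 to Col4a2, whose products also share a molecule, was 1.63, 1.53, 1.76 and 1.57 against 1.355, 1.64, 1.36 and 1.85 (log2 difference -0.07, exact p = 0.571, adjusted 0.571). Col6a1 to Col6a2 was 3.05, 2.96, 2.15 and 3.34 against 5.47, 2.70, 3.22 and 2.94 (0.28, exact p = 0.486, adjusted 0.571), and its difference was 0.05 without mouse 308.

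**Figure D4:**
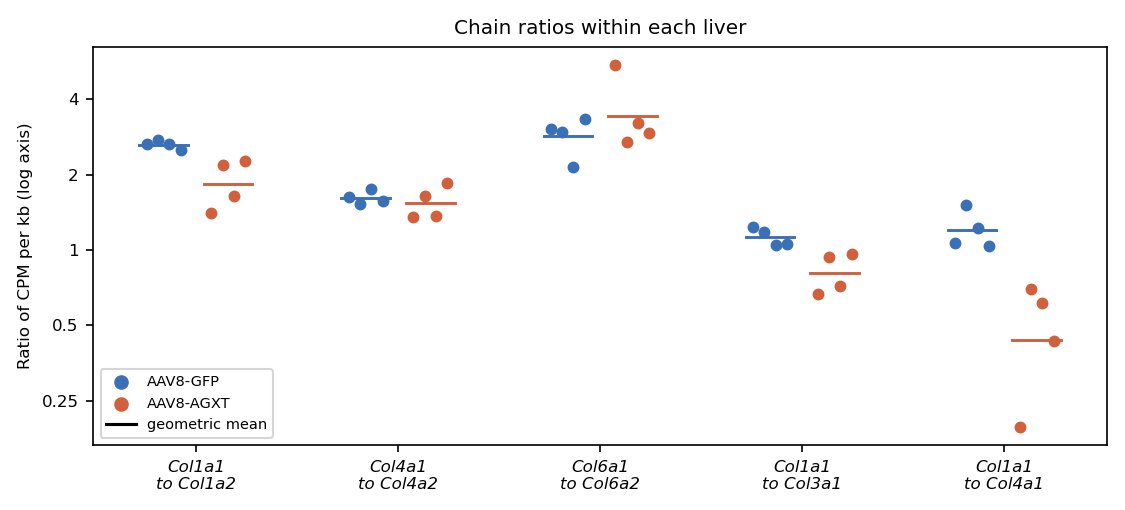
Ratio of CPM per kb of exon between 2 collagen genes in the same liver (vertical log axis), a point for each mouse and a line at the geometric mean of 4 mice. For the 3 ratios with Col1a1 on top every orange point (AAV8-AGXT) is below every blue one (AAV8-GFP), and for the type IV and type VI ratios the colours mix.

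Collagen chains are hydroxylated, folded and cut by dedicated enzymes before they are cross-linked, and 47 genes of these steps and of collagen binding were examined. Of the 41 that were tested, 5 were lower in edgeR and 0 higher, 18 were lower and 7 higher at an unadjusted p under 0.05, and DESeq2 called 12 lower and 3 higher; the median log2 fold change was -0.38. Over all genes these shares were 1.9% and 2.45% in edgeR, 12.6% and 13.5% at the unadjusted p, and 6.37% and 6.58% in DESeq2. Without mouse 311, 314 or 319 the number of these genes called lower by edgeR was 0, and calls over all genes dropped from 664 to 2, 15 and 14. The number called lower was 1 without mouse 303, 2 without mouse 308, 3 without mouse 316, 6 without mouse 309 and 8 without mouse 315.

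The 5 genes came from different steps. Plod2, which hydroxylates lysines of the chain ends and so sets the kind of cross-link, fell from 3.97 to 5.58 CPM in AAV8-GFP to 1.38 to 2.82 CPM in AAV8-AGXT (log2 fold change -1.22 ± 0.26, adjusted p = 0.0389). Creb3l1, a factor that drives type I collagen secretion in bone, fell from 8.39 to 11.99 CPM to 2.55 to 5.41 CPM (-1.14 ± 0.24, adjusted p = 0.0366). Pcolce, an enhancer of the protease that removes the propeptide, fell from 21.4 to 31.3 CPM to 11.9 to 17.1 CPM (-0.94 ± 0.16, adjusted p = 0.0278). The groups were separate for each of these. Mrc2, a receptor that takes up collagen fragments, changed by -1.28 ± 0.30 (adjusted p = 0.045) and Ddr1, a collagen-binding kinase of epithelia, by -1.40 ± 0.34 (adjusted p = 0.0495), with separate groups as well.

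By step, all 5 genes of cross-linking had negative log2 fold changes. At an unadjusted p under 0.05, 4 were lower (12.6% of all genes). Of the 5, 0 passed edgeR and 2, Loxl1 and Loxl2, passed DESeq2 as lower (6.37% of all genes). Loxl1 was at -1.495 ± 0.37 with separate groups (adjusted p = 0.0528 in edgeR and 0.00188 in DESeq2). Loxl2 was at -0.96 ± 0.31 (adjusted p = 0.0907 and 0.0253). Lox, which starts the cross-link, was at -1.15 ± 0.49 (adjusted p = 0.168 and 0.0942). The summed level of the 5 was 10.8 ± 3.02 CPM per kb in AAV8-GFP and 5.01 ± 1.77 in AAV8-AGXT (SD, n = 4 each), without overlap. In folding and export, Serpinh1, the collagen chaperone HSP47, was at -1.19 ± 0.43 (adjusted p = 0.121 in edgeR and 0.0362 in DESeq2). However, 6 of the 9 genes listed for this step were positive, and 2 of them, Mia2 and Tango6, passed DESeq2 as higher (6.58% of all genes). Whether Mia2 and Tango6 serve collagen export in these livers was not tested. Mia2 was at 0.46 ± 0.13 (adjusted p = 0.0696 and 0.0068) and Tango6 at 0.53 ± 0.16 (adjusted p = 0.0753 and 0.023). Sec23a was at 0.37 ± 0.11 (adjusted p = 0.0849 and 0.051). P4ha1, a subunit of the prolyl hydroxylase that stabilises the helix, was at -0.65 ± 0.24 (adjusted p = 0.133). Its partner P4hb, which every secretory cell uses, was at -0.03 ± 0.17 (adjusted p = 0.933). Bmp1, the propeptide protease itself, was positive (0.53 ± 0.17, adjusted p = 0.0915 in edgeR and 0.0394 in DESeq2), opposite to its enhancer Pcolce.

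**Figure D5:**
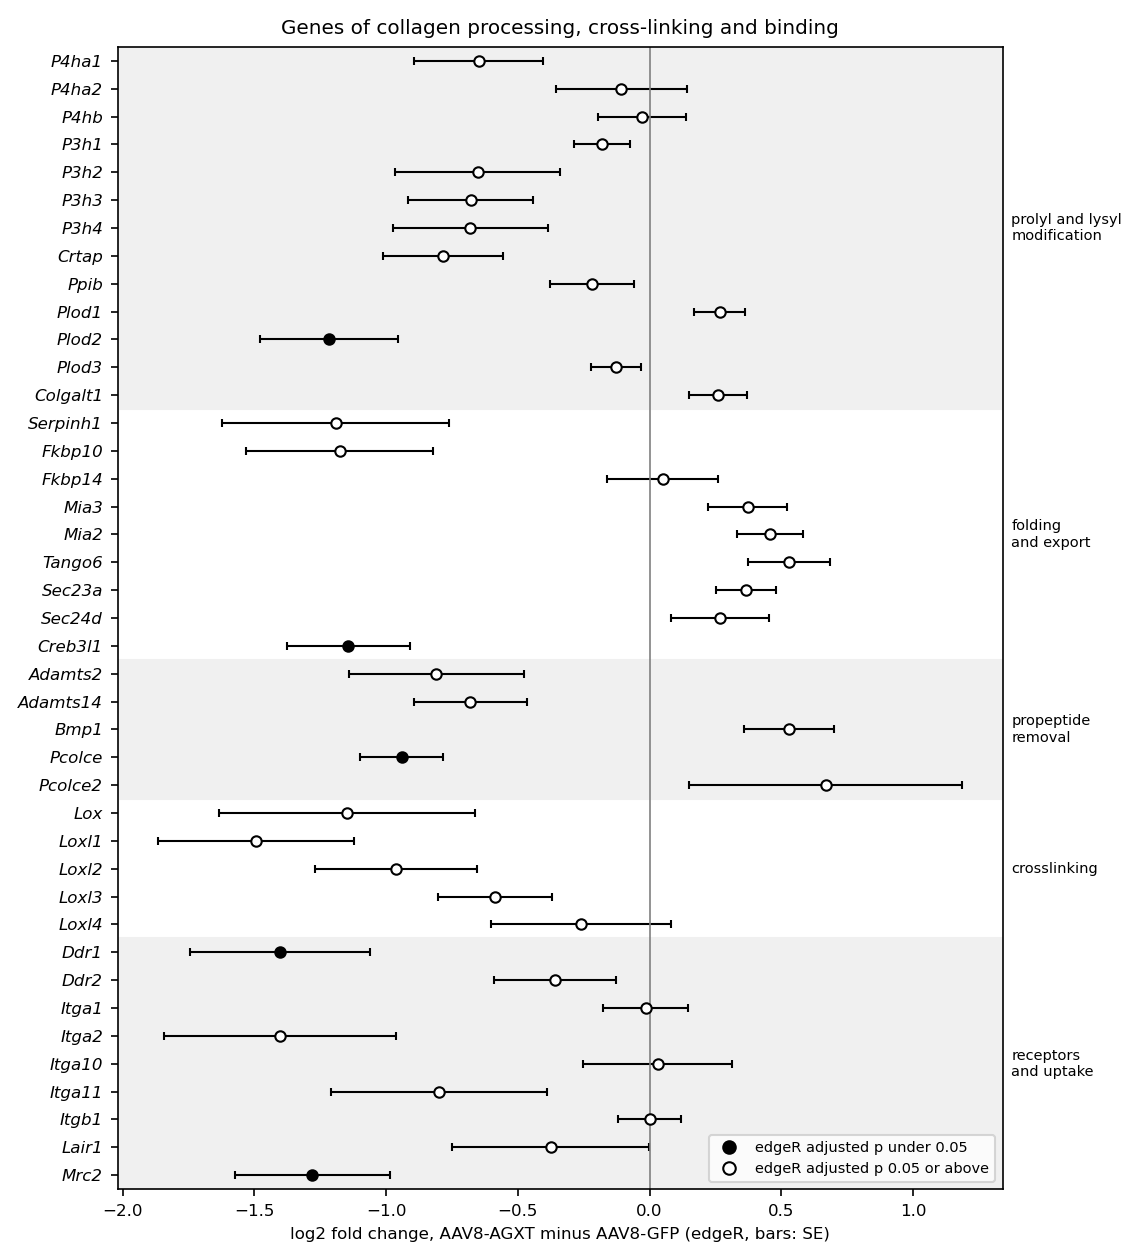
Log2 fold change of AAV8-AGXT minus AAV8-GFP (horizontal axis, edgeR, bars are SE, 4 mice per group) for 41 tested genes of collagen modification, export, propeptide removal, cross-linking and binding, filled where the edgeR adjusted p was under 0.05. The 5 filled points, Plod2, Creb3l1, Pcolce, Ddr1 and Mrc2, are all left of 0.

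Markers of the cells known to make collagen differed unevenly between the groups. Of 8 markers of activated stellate cells, 6 were lower at an unadjusted p under 0.05 (12.6% of all genes). The 1 that passed edgeR (1.9%) and DESeq2 (6.37%) was Acta2 (smooth muscle actin), at -0.99 ± 0.22 (adjusted p = 0.0427 in edgeR). Dcn (-0.15 ± 0.29, adjusted p = 0.782 in edgeR) and Tagln (0.05 ± 0.49, adjusted p = 0.96) did not reach an unadjusted p under 0.05. The summed level of the 8 was 51.5 to 75.95 CPM per kb in AAV8-GFP and overlapped the 29.5 to 68.0 of AAV8-AGXT. Dcn alone averaged 36.3 of the mean sum of 65.5 in AAV8-GFP and 32.8 of 49.3 in AAV8-AGXT. Of 7 markers of portal fibroblasts, 6 were lower at an unadjusted p under 0.05 (12.6% of all genes), 0 passed edgeR and 6 passed DESeq2 (6.37%), and the summed levels were separate, 13.95 to 22.8 against 7.03 to 12.7 CPM per kb. Quiescent stellate markers summed to 70.5 to 101 against 70.9 to 108 CPM per kb and overlapped. Endothelial markers summed to 27.5 to 40.3 against 27.6 to 54.0, and of these 7 genes 0 reached an unadjusted p under 0.05 or passed edgeR or DESeq2.

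Cholangiocyte markers were all 6 lower at an unadjusted p under 0.05 (12.6% of all genes), with 0 passing edgeR and 5 passing DESeq2 (6.37%). In both groups the mouse lowest in their summed level, which was mostly Spp1, was also the one lowest in most collagens. Sox9 and Cldn4 differed among AAV8-AGXT mice, with mouse 319 (4.91 and 0.472 CPM) below mouse 308 (8.01 and 0.552 CPM). Macrophage markers (58.1 to 153.5 CPM per kb over the 8 livers) and lymphocyte markers (1.35 to 2.94) overlapped, as did smooth muscle (0.373 to 0.767) and mesothelial markers (0.114 to 1.51). Of the 7 macrophage genes 0 passed edgeR, and DESeq2 called 2 lower (6.37% of all genes) and 1 higher (6.58%). Cd68, with separate groups (log2 fold change -1.001 ± 0.35 in edgeR, DESeq2 adjusted p = 0.0389), and Trem2 (-1.42 ± 0.44, DESeq2 adjusted p = 0.0133) were lower. Timd4, a marker of resident macrophages, was higher (2.49 ± 0.72, DESeq2 adjusted p = 0.00342). Clec4f (0.45 ± 0.30), Adgre1 (0.13 ± 0.38), Csf1r (-0.27 ± 0.30) and Gpnmb (-1.03 ± 0.61) passed neither test. Timd4 read 13.6 CPM in mouse 319 and 1.33 to 3.04 in the other AAV8-AGXT mice, and its groups overlapped. Of the exocrine pancreas genes Cpa1 had no reads, Pnlip and Prss2 stayed under 0.2 CPM, and Cela1 read 9.07 to 15.7 CPM. The part of these cell types in the collagen values was not tested.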

How the data were processed

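Liver RNA of 8 mice, 4 per vector, had been sequenced in paired-end mode from a stranded mRNA kit. The deposited values are raw counts of reads per Ensembl gene, 1 file per mouse. Per the labels and the methods, the authors checked reads with FastQC 0.11.8, trimmed them with Trimmomatic 0.35, aligned them to GRCm38 with HISAT2 2.1.0.13 and counted them with HTSeq. The strand setting is not given in the sources used here, so stretches shared with other genes, up to 6.1% of exon bases for Col9a3, could add or remove reads.

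Genes were filtered with filterByExpr, scaled by TMM and compared with the quasi-likelihood test of edgeR 4.0.16 in R 4.3.3, and p-values were adjusted by Benjamini-Hochberg over all 15248 tested genes. DESeq2 1.42.0 (Wald test) was the second test and limma 3.58.1 (voom) a further one. A ± after a log2 fold change is an SE and after a level an SD. Lengths, positions and names came from GENCODE M21 (GRCm38), in which 52489 of 52636 identifiers matched. Chain ratios were compared in Python 3.11.15. The fits were tested on simulated counts. The common biological coefficient of variation was 23.3% with 4 mice per group. A count of 0 was read as an upper limit of 3 reads per library, which covers counting error only.

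Values in every mouse are given for genes called by edgeR or DESeq2, for Col1a1, Col1a2 and Col4a1 and for the most abundant gene per length of each class; Col3a1 and Col4a2 were added after their values were seen. Pathway genes are named if edgeR called them, with Serpinh1, P4ha1, Lox and Loxl2. Loxl1, Mia2, Tango6, Sec23a, P4hb and Bmp1 were chosen after their values were seen. So were the markers Spp1, Sox9, Cldn4, Dcn, Tagln, Cd68, Trem2, Timd4, Clec4f, Adgre1, Csf1r and Gpnmb. The members, gene lists and ratios were chosen with earlier results of these data known.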

Additional observations from a re-analysis of the deposited data

Results flagged for a closer look

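Over the 30 tested collagen genes and 5 ratios, 70 groups of 4 mice were examined for a mouse whose gap to its nearest neighbour exceeded Dixon's critical share of the group's range, and 2 were found; chance gives about 1 in 20. Col11a2 was 3.125 CPM in AAV8-AGXT mouse 309, with the nearest of the others at 5.136 CPM and a gap of 0.856 of the range. Col9a3 was 2.173 CPM in AAV8-GFP mouse 311, with the nearest at 1.292 CPM and a gap of 0.954 of the range; 6.1% of the exon bases of Col9a3 are shared with another annotated gene. Neither gene passed a test, and mice 308 and 315 accounted for 0 of these 2.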

How the results depend on the processing

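The number of collagen genes called lower was 10 with DESeq2, 2 with total counts and 3 with no filter on low counts, against 0 with edgeR as first run; it was 0 with limma-voom, robust estimation, DESeq2 size factors in edgeR, or at least 10 counts in every mouse, and 0 to 2 when 1 mouse was left out. None was called higher under any of these settings. Over all genes, calls in both directions numbered 664 of 15248 with edgeR as first run and 1001 of 15248 with total counts. They numbered 2101 with DESeq2 and 846 of 28338 with no filter on low counts. With limma-voom, robust estimation, DESeq2 size factors or at least 10 counts they ranged from 506 to 684. When 1 mouse was left out they ranged from 2 to 643. Pathway genes called lower numbered 12 with DESeq2 (3 higher) and 0 to 8 when 1 mouse was left out. The log2 differences of the ratios without 1 mouse ranged from -0.616 to -0.389 for Col1a1 to Col1a2, from -0.562 to -0.385 for Col1a1 to Col3a1 and from -1.678 to -1.069 for Col1a1 to Col4a1, and no such fit can reach a p under 0.0571. Of 445 fits over members and settings, 439 kept the sign, and 27 of 30 genes never changed it. The exceptions were Col20a1 (-0.099 with total counts, -0.022 to 0.382 without 1 mouse), Col7a1 (-0.052, and -0.01 to 0.403) and Col23a1 (-0.501 to 0.084 without 1 mouse). With total counts the summed collagen level was at a ratio of 0.731 in place of 0.859. The causes were not tested. The smallest counts, 2 to 27 reads per liver for Col6a5 and Col8a2, limit what their DESeq2 calls can carry. No paired analysis was possible because the groups share no replicate numbers.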

Other observations

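Among the 4 AAV8-AGXT livers the order of mouse Agxt was the reverse of that of Col1a1, a pattern noticed after the values were seen. Agxt was 405 CPM in mouse 308, 371 in mouse 319, 243 in mouse 316 and 201 in mouse 309, and Col1a1 was 8.35, 33.1, 48.8 and 76.7 CPM in the same mice. The reversed order held for 11 of the 30 tested collagen genes (Col1a1, Col1a2, Col3a1, Col4a1, Col4a2, Col4a6, Col5a2, Col6a2, Col6a3, Col8a1 and Col14a1) and for 7.85% of all 15248 tested genes. In the 4 AAV8-GFP livers, where Agxt ranged from 148 to 179.6 CPM, it held for 0 of the 30 and 1.96% of all. The 11 genes were measured in the same 4 livers and are not separate observations, and a relation over 4 mice was not tested. Summed hepatocyte markers in mice 308, 319, 316 and 309 were 42212, 34877, 28950 and 30719 CPM per kb.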
